A study of Mus musculus with 24 samples.

Results

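Mitochondrial fatty acid oxidation and uptake genes were examined in RNA-seq of livers from male mice fasted for 24 h. The set is a list of 39 gene symbols, and all 39 were found by name among the 54532 genes of the count table. It holds genes for fatty acid uptake (4), acyl-CoA synthetases (7), the carnitine shuttle (6), acyl-CoA dehydrogenases (8), the later steps of the spiral (5), the handling of unsaturated acyl-CoA (3), electron transfer (3) and a family with an enoyl-CoA hydratase domain (3). The mice were 8 to 10 weeks old, and each of 6 groups had 4 livers. The group ff;ff carried floxed alleles of both Rab30 and Cpt2 without Cre and consisted of littermates of the DKO mice, so it is called the floxed control below. Rab30L-/-, Cpt2L-/- and DKO were floxed for Rab30, for Cpt2 or for both, and carried a Cre transgene driven by the albumin promoter. This promoter acts in hepatocytes, and other liver cells may keep intact alleles. Rab30KO mice lacked Rab30 in the whole body, and Rab30 Ctrl were their wildtype littermates. No group is labelled as littermates of the Cpt2L-/- or the Rab30L-/- mice, so the floxed control served both.

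During a fast, adipose tissue releases fatty acids, which hepatocytes take up, activate to acyl-CoA and pass into mitochondria as carnitine esters. Carnitine palmitoyltransferase 1a (Cpt1a) makes the ester at the outer membrane, the carrier Slc25a20 moves it inward, and Cpt2 turns it back into acyl-CoA in the matrix. The acyl-CoA is then shortened in a repeated spiral of dehydrogenation, hydration, a further dehydrogenation and thiolysis, and electrons from the first step enter the respiratory chain through the electron transfer flavoprotein. Many of these genes are known targets of Pparα, the nuclear receptor that free fatty acids activate in the fasted liver. The comparisons asked how these RNAs differed in livers labelled as lacking Cpt2, Rab30 or both.

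Levels are given as CPM (counts scaled to a library of 1000000 after TMM scaling), in the order of replicates 1 to 4, and changes as log2 fold changes ± SE from edgeR's quasi-likelihood test on 4 livers against 4. A gene was called where the Benjamini-Hochberg adjusted p over all genes tested was under 0.05 and the change was at least 1.2-fold. Library totals ran from 11801027 to 24497738 counts. Reads of hepatocytes and of other cells were counted together, so fewer cells of a type and less RNA per cell cannot be told apart.

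In libraries labelled Cpt2L-/-, 21 of the 39 genes were called against the floxed control, 18 higher and 3 lower. Of all 13270 genes tested, 23.8% were called, 11.9% higher and 11.9% lower. In libraries labelled DKO, 19 were called, 16 higher and 3 lower, where 16.1% of 13389 genes were called, 7.87% higher and 8.24% lower. The median log2 fold change over the 39 genes was 0.31 in Cpt2L-/- and 0.42 in DKO, while over all genes tested it lay at 0.00 and -0.02. In 20 of the 39 genes no Cpt2L-/- library overlapped the floxed controls, as held for 26.7% of all genes tested, and in 20 no DKO library did, against 20.5% of all genes. Since the same 4 floxed control livers served both comparisons, the values of each are given side by side.

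**Figure D1:**
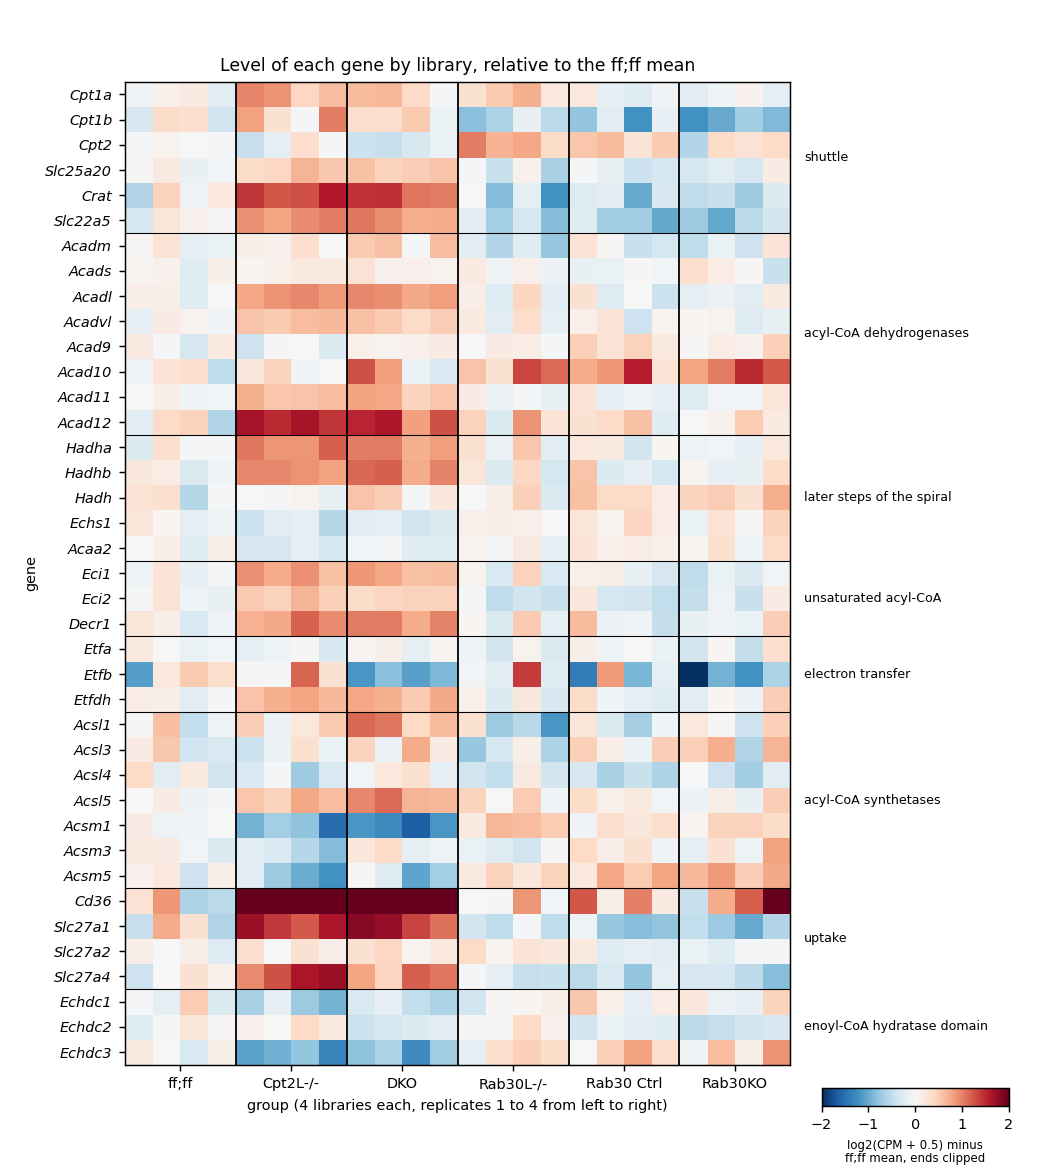
Each row is a gene and each column a library, 4 for each of 6 groups, coloured by log2(CPM + 0.5) minus the mean of the ff;ff libraries, with colours clipped at 2 in either direction. Cd36, Acad12, Crat and Slc27a1 are redder in every Cpt2L-/- and DKO library than in any ff;ff library, and Acsm1 and Echdc3 are bluer.

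**Figure D2:**
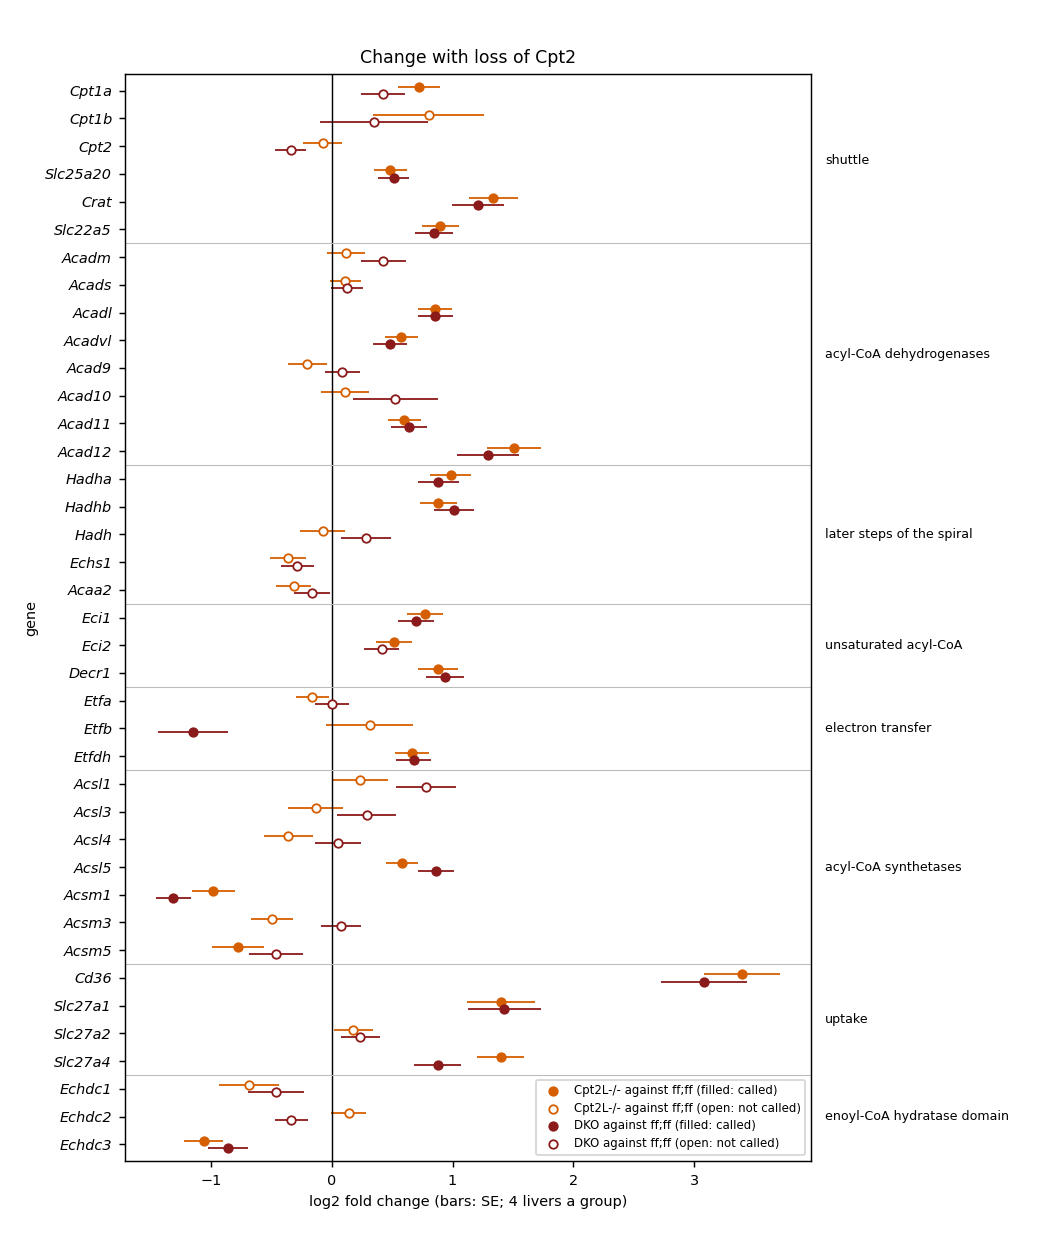
The log2 fold change of each of the 39 genes against ff;ff is plotted for Cpt2L-/- and DKO livers, with bars for the SE and filled points where the gene was called. Cd36 lies farthest to the right, at 3.40 and 3.08, and the called falls are Acsm1, Echdc3, Acsm5 (Cpt2L-/-) and Etfb (DKO).

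The 39 genes together took between 0.968% and 1.27% of a library's counts, before TMM scaling, in the floxed controls. In Cpt2L-/- livers this share was between 1.63% and 1.78%, and in DKO livers between 1.53% and 1.87%, above every floxed control liver. After TMM scaling the ranges were 1.07% to 1.32% in floxed control, 1.42% to 1.58% in Cpt2L-/- and 1.39% to 1.77% in DKO livers, a smaller rise. The unscaled share was between 0.972% and 1.28% in Rab30L-/-, Rab30 Ctrl and Rab30KO livers. The median SD over the genes was 15.6% of the mean in floxed control livers and 11.7% in Cpt2L-/- livers.

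Per length, the genes spanned a wide range in floxed control livers. Slc27a2, a fatty acid transport protein that also activates very long chain fatty acids, and Acaa2, the mitochondrial thiolase, had the highest deposited FPKM, at 563 ± 72.2 and 572 ± 66.2 (SD, n = 4), and these did not differ beyond their spread. Cpt1a followed at 208 ± 26.9 FPKM, and Cpt1b, the muscle form of Cpt1a, was lowest at 0.212 ± 0.103 FPKM. Of 38 pairs of neighbours in this order, 35 overlapped between libraries, and the pairs without overlap were Slc27a2 and Cpt1a, Eci1 and Acadvl, and Echdc1 and Cpt1b. For 36 of the genes the listed length is the union of all annotated exons, and 12 of the genes had a listed length over 2 times their principal transcript. With that transcript's length in place of the listed one, Echs1 moved from rank 24 to rank 8 in CPM per kb, Acsl1 from rank 7 to rank 3 and Cpt1a from rank 3 to rank 6, and Eci1 and Acadvl, at 129 ± 18.2 and 124 ± 12.9 CPM per kb (SD, n = 4), no longer differed beyond their spread.

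**Figure D3:**
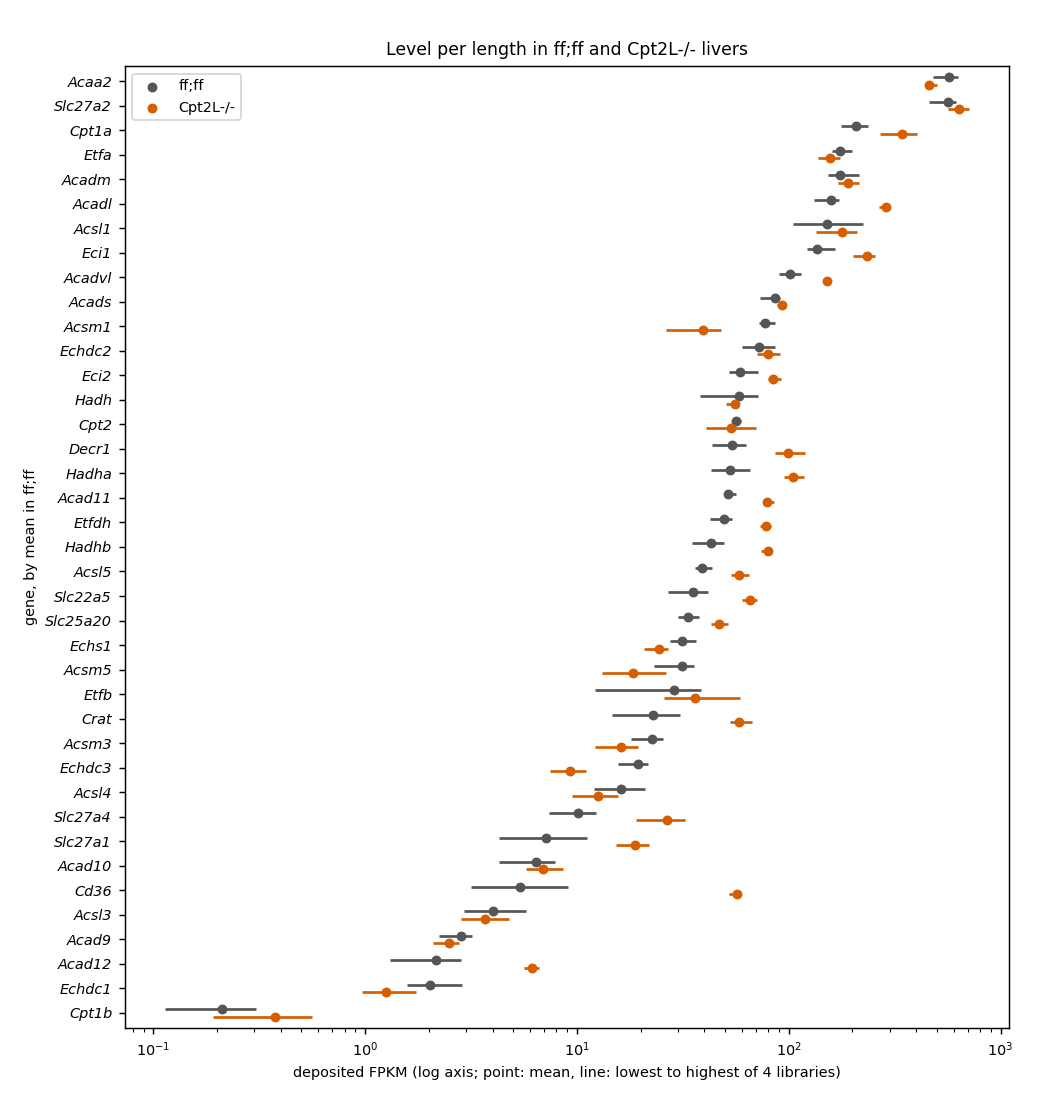
Deposited FPKM on a log axis is shown for every gene in ff;ff and Cpt2L-/- livers, with a point for the mean and a line from the lowest to the highest of 4 libraries, sorted by the mean in ff;ff. Cd36 stands at a mean of 5.38 in ff;ff and 56.8 in Cpt2L-/-, the widest gap between the groups.

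Of the uptake genes, Cd36, Slc27a1 and Slc27a4 rose with loss of Cpt2 and Slc27a2 was not called. Cd36, the fatty acid translocase of the plasma membrane, had 21.2, 31.8, 11.1 and 11.7 CPM in floxed control livers. It had 208, 183, 211 and 205 CPM in Cpt2L-/- livers and 196, 198, 135 and 117 CPM in DKO livers. Every library of both knockouts was above every floxed control library, by 10.5-fold and 8.46-fold on average. The log2 fold changes of Cd36 were 3.40 ± 0.31 (SE, adjusted p = 2.4e-05) in Cpt2L-/- and 3.08 ± 0.36 (SE, adjusted p = 4.3e-04) in DKO, and no left-out library changed either call. The Rab30L-/- livers, at 17.4, 16.8, 32.2 and 16.6 CPM, lay within or just above the floxed control range. Slc27a1, a fatty acid transport protein, had 27.4, 63.98, 47.1 and 24.8 CPM in floxed control, 126, 102, 89.7 and 118 in Cpt2L-/- and 135, 129, 97.9 and 81.7 in DKO livers. The floxed control values spread widely, but none reached the lowest knockout library. Its log2 fold changes were 1.40 ± 0.28 (SE, adjusted p = 0.00330) and 1.43 ± 0.30 (SE, adjusted p = 0.00883). Slc27a4, another fatty acid transport protein, changed by 1.40 in Cpt2L-/- and 0.88 in DKO on the log2 scale. Slc27a2 gave 0.18 and 0.24 on that scale.

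Cd36 and Cpt1b are also genes of adipocytes and muscle. The summed level of 5 adipocyte markers was at most 3.61 CPM in any floxed control liver, 0.907 in any Cpt2L-/- liver and 0.387 in any DKO liver. The medians went the other way, at 0.070, 0.282 and 0.245 CPM. Adipoq, Lep and Retn were at 0 in all Cpt2L-/- libraries. Plin1 ran from 0 to 0.296 CPM in floxed control, 0.126 to 0.453 in Cpt2L-/- and 0.065 to 0.387 in DKO livers. The 9 striated muscle markers summed to at most 0.911 CPM in these groups, with Myh6, Myh7 and Mb at 0 in every library of the 3 groups.

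Pparα binds DNA with its partner Rxr at a direct repeat of the letters AGGTCA with 1 base between the copies. The window from 250 bases before to 50 after each RefSeq gene start (GRCm38.p6) was searched on both strands for AGGTCANAGGTCA with up to 2 mismatches. The windows of 34 of the 39 genes could be matched by symbol, 38 windows in all. Such letters were held by windows of 4 of these genes. They were held by 3.86% of all 32851 windows, a share of windows and not of genes. These 4 stretches are shown because they are the nearest matches among the genes and include Cd36, which moved most. The capitals mark the 13 letters that were compared, each with 2 mismatches, and the flanks are 8 bases on either side.
Cd36, chr5:17835939-17835967, plus strand: atccaagtAAGTCAGAGGCCAgagaacca
Slc25a20, chr9:108662134-108662162, plus strand: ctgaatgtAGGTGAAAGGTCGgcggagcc
Etfa, chr9:55512300-55512328, plus strand: ttgggagtAGGGCAAAGGTAAgggtgtgc
Echs1, chr7:140116484-140116512, minus strand: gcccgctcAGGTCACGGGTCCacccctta
The stretch of Cd36 begins its match 63 bases before a RefSeq start that lies inside the longer listed span of the gene (chr5:17781690-17888801), and that of Slc25a20 lies just after the start. Cd36 and Slc25a20 were called higher in both knockouts, while Etfa and Echs1 were not called in either. No window of the 34 genes held the letters with fewer mismatches, which says nothing of sites elsewhere.

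The acyl-CoA synthetases, which activate fatty acids by joining them to coenzyme A, went both ways. Acsl5, which acts on long chains, rose in both knockouts, and Acsm1 and Acsm5, matrix enzymes for medium chains, were lower. Opposite-strand exons cover over 5% of the exon bases of 7 of the 39 genes, 8.31% for Acsl5, 9.91% for Acsl1 and 39.7% for Acsm3 among them. Acsl5 had 183, 207, 171 and 181 CPM in floxed control, 271, 253, 315 and 284 in Cpt2L-/- and 359, 407, 297 and 295 in DKO livers. Neither knockout overlapped the floxed control, with log2 fold changes of 0.58 ± 0.13 (SE, adjusted p = 0.00626) and 0.86 ± 0.15 (SE, adjusted p = 0.00262). Acsm1 had 186, 155, 157 and 164 CPM in floxed control, 85.3, 102, 94.3 and 56.9 in Cpt2L-/- and 73.8, 67.7, 53.1 and 73.8 in DKO livers. All 8 knockout values lay under the lowest floxed control value, and the log2 fold changes were -0.98 ± 0.17 (SE, adjusted p = 0.00125) and -1.31 ± 0.14 (SE, adjusted p = 1.6e-04). Acsm5 had 123, 133, 85.9 and 126 CPM in floxed control, 98.7, 69.2, 57.8 and 49.3 in Cpt2L-/- and 117, 96.8, 55.4 and 72.01 in DKO livers, with overlap in both cases. It was called in Cpt2L-/-, at -0.78 ± 0.21 (SE, adjusted p = 0.0185), and not in DKO, at -0.46 ± 0.22 (SE, adjusted p = 0.193). The call of Acsm5 in Cpt2L-/- was lost without ff;ff replicate 2, Cpt2L-/- replicate 3 or Cpt2L-/- replicate 4, with an adjusted p of up to 0.0609 in the same edgeR test. Acsl1, the main long-chain synthetase of liver, gave log2 values of 0.23 in Cpt2L-/- and 0.78 in DKO, the latter with an adjusted p of 0.0511 by edgeR. Acsl3, Acsl4 and Acsm3 were not called in either knockout, with log2 values between -0.50 (Acsm3 in Cpt2L-/-) and 0.29 (Acsl3 in DKO).

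In the carnitine shuttle, 4 of 6 genes rose in Cpt2L-/- and 3 in DKO, and none fell. Crat, the matrix enzyme that links acetyl groups to carnitine, had 77.6, 161, 111 and 136 CPM in floxed control livers. It had 316, 278, 286 and 358 CPM in Cpt2L-/- and 319, 324, 246 and 242 CPM in DKO livers, without overlap. Crat was 2.53-fold and 2.32-fold higher, with log2 fold changes of 1.34 ± 0.20 (SE, adjusted p = 4.4e-04) and 1.21 ± 0.21 (SE, adjusted p = 0.00276). Slc22a5, which imports carnitine at the plasma membrane, had 81.8, 125, 112 and 106 CPM in floxed control, 199, 181, 203 and 216 in Cpt2L-/- and 219, 200.2, 174 and 175 in DKO livers. All knockout libraries were higher, at 0.90 ± 0.15 (SE, adjusted p = 8.4e-04) and 0.85 ± 0.16 (SE, adjusted p = 0.00379). Cpt1a, the rate-controlling enzyme of entry, changed by 0.72 in Cpt2L-/- and was not called in DKO, at 0.42 on the same log2 scale with an adjusted p of 0.149 by edgeR. Slc25a20 rose in both, by log2 values of 0.49 and 0.51. Its calls were lost when any 1 of 3 libraries was left out in Cpt2L-/- and either of 2 in DKO, with an adjusted p of up to 0.0595 by edgeR. Cpt1b stood at 2 CPM or less in every library and was not called.

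Cpt2, the deleted gene, did not follow the labels. Its counts were 128, 139, 133 and 128 CPM in floxed control, 95.3, 116, 167 and 128 in Cpt2L-/- and 97.7, 96.1, 106 and 120.00 in DKO livers. The Cpt2L-/- libraries lay on both sides of the floxed controls, while the DKO libraries lay below them. The log2 fold change was -0.07 ± 0.16 (SE, adjusted p = 0.788) in Cpt2L-/-, which moved to 0.036 without Cpt2L-/- replicate 1, and -0.34 ± 0.13 (SE, adjusted p = 0.0911) in DKO. The deleted part of Cpt2 is not given in the sources used here, so counts over the whole gene (chr4:107903981-107923610) may include reads outside it and do not check the labels. The same holds for Rab30, of which the deletion removes exon 4. Its counts ranged from 25.9 to 44.6 CPM in floxed control, 122 to 188 in Cpt2L-/-, 101 to 231 in DKO, 10.4 to 26.6 in Rab30L-/-, 6.64 to 30.1 in Rab30 Ctrl and 5.39 to 17.4 in Rab30KO livers. Groups are therefore named by their labels throughout.

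Of the acyl-CoA dehydrogenases, which take the first step of the spiral, Acadl, Acadvl, Acad11 and Acad12 rose in both knockouts and the other 4 were not called in either. Acadl, for long chains, had 339, 337, 259 and 311 CPM in floxed control, 529.5, 575, 607 and 562 in Cpt2L-/- and 604, 588, 522 and 552 in DKO livers. The groups did not overlap, and the log2 fold changes were 0.86 ± 0.14 (SE, adjusted p = 8.2e-04) and 0.86 ± 0.15 (SE, adjusted p = 0.00221). Acad12, a little studied relative, was far lower in reads, with 11.3, 17.3, 18.1 and 8.51 CPM in floxed control, 42.5, 37.9, 42.4 and 36.3 in Cpt2L-/- and 38.96, 41.4, 23.8 and 32.6 in DKO livers. It rose 2.85-fold and 2.45-fold, with log2 fold changes of 1.51 ± 0.22 (SE, adjusted p = 3.1e-04) and 1.29 ± 0.25 (SE, adjusted p = 0.00529). Its neighbour Acad10, whose span starts 2.087 kb beyond the end of that of Acad12, gave log2 values of 0.11 and 0.53 and was not called. In DKO livers Acad10 ranged from 29.9 to 90.9 CPM. Acad10 and Acad12 are close relatives, and reads that fit both may have been split between them. Acadvl, for very long chains, changed by log2 values of 0.57 and 0.48, and Acad11, known for hydroxylated acids, by 0.60 and 0.64. The call of Acadvl in DKO was lost when any 1 DKO library, ff;ff replicate 1 or ff;ff replicate 4 was left out, with an adjusted p of up to 0.0984 by edgeR, and without the filter on low counts (0.0517). Opposite-strand exons of Dvl2 cover 42.9% of the exon bases of Acadvl, and counting is not stated to use strand. Acadm and Acads, for medium and short chains, gave log2 values of 0.12 and 0.11 in Cpt2L-/- and 0.43 and 0.13 in DKO. Acad9, known as an assembly factor of respiratory complex I, gave log2 values of -0.20 and 0.09.

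In the later steps, Hadha and Hadhb, the subunits of the trifunctional protein that acts on long chains, rose together, and the enzymes for shorter chains did not. Hadha had 368, 558, 442 and 442 CPM in floxed control, 931, 825, 828 and 1024 in Cpt2L-/- and 909, 920.1, 729 and 801 in DKO livers. Hadhb had 323, 306, 225 and 263 CPM in floxed control, 539, 537, 516 and 483 in Cpt2L-/- and 613, 636, 464 and 552 in DKO livers. Both genes were higher in all 8 knockout livers than in any floxed control liver. The log2 fold changes of Hadha were 0.98 ± 0.17 (SE, adjusted p = 9.0e-04) and 0.88 ± 0.17 (SE, adjusted p = 0.00432). Those of Hadhb were 0.88 ± 0.15 (SE, adjusted p = 0.00102) and 1.01 ± 0.17 (SE, adjusted p = 0.00181). The shorter-chain enzymes Hadh, Echs1 and Acaa2 gave log2 values of -0.07, -0.36 and -0.31 in Cpt2L-/- and 0.29, -0.28 and -0.16 in DKO, and none was called.

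Hadha and Hadhb start 85 bases apart on opposite strands of chromosome 5, with Hadha on the minus strand (chr5:30118304-30155162) and Hadhb on the plus strand (chr5:30155248-30184593). The stretch between their listed first bases, from the RefSeq window of Hadhb (GRCm38.p6), is shown because the genes moved alike and share it. Capitals mark the letters GGGCGG, the core of a GC box, which were searched on both strands.
Between Hadha and Hadhb, chr5:30155163-30155247, plus strand: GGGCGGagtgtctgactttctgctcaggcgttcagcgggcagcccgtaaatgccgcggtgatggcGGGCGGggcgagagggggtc
The letters occur 2 times in this stretch, and they occur in 35.7% of all RefSeq windows of 300 bases. G and C make up 69.4% of its bases.

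The genes that let the spiral pass double bonds rose as well. Decr1, the dienoyl-CoA reductase, had 239.95, 222, 164 and 194 CPM in floxed control, 328, 343, 462 and 392 in Cpt2L-/- and 419, 414, 339.6 and 403 in DKO livers. Eci1, an enoyl-CoA isomerase, had 135, 176, 130.1 and 144 CPM in floxed control, 275, 242, 274 and 217 in Cpt2L-/- and 266, 249, 217 and 221 in DKO livers. Neither gene overlapped between the floxed control and either knockout. The log2 fold changes were 0.88 ± 0.16 (SE, adjusted p = 0.00173) and 0.93 ± 0.16 (SE, adjusted p = 0.00195) for Decr1, and 0.77 ± 0.15 (SE, adjusted p = 0.00196) and 0.70 ± 0.15 (SE, adjusted p = 0.00681) for Eci1. The isomerase Eci2 was called in Cpt2L-/- (log2 value 0.51) and not in DKO (log2 value 0.41, adjusted p = 0.0776), although the DKO livers did not overlap the floxed controls. Its call was lost without ff;ff replicate 4 or any Cpt2L-/- library (adjusted p up to 0.0733 by edgeR).

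The electron transfer genes differed from each other. Etfdh, the membrane enzyme that hands electrons to ubiquinone, rose in both knockouts, while Etfa and Etfb, the subunits of the flavoprotein, did not rise. Etfdh had 401, 394, 309.8 and 352 CPM in floxed control, 538, 598, 623 and 569 in Cpt2L-/- and 619.7, 593, 519 and 609.5 in DKO livers. It was higher in all knockout libraries, at 0.66 ± 0.14 (SE, adjusted p = 0.00434) and 0.68 ± 0.15 (SE, adjusted p = 0.00830). Etfa gave log2 values of -0.16 and 0.00. Etfb had 13.9, 35.4, 43.8 and 38.98 CPM in floxed control, 30.9, 29.3, 68.3 and 37.7 in Cpt2L-/- and 13.3, 16.8, 13.98 and 15.9 in DKO livers. The floxed control and Cpt2L-/- livers spread widely, and the DKO livers lay below all of them except floxed control replicate 1. Its log2 fold change was 0.31 ± 0.36 (SE, adjusted p = 0.581) in Cpt2L-/- and -1.15 ± 0.29 (SE, adjusted p = 0.0198) in DKO, and the latter call was lost without DKO replicate 1, DKO replicate 3 or ff;ff replicate 4 (adjusted p up to 0.0598) and in the fit over all 24 libraries. Etfb shares 58.2% of its exon bases (chr7:43444083-43457800) with genes annotated on its own strand in GENCODE M21, mainly the read-through gene Gm45233, so its counts are uncertain. Cpt1b shares 81.4% with Gm44502 in the same way.

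**Figure D4:**
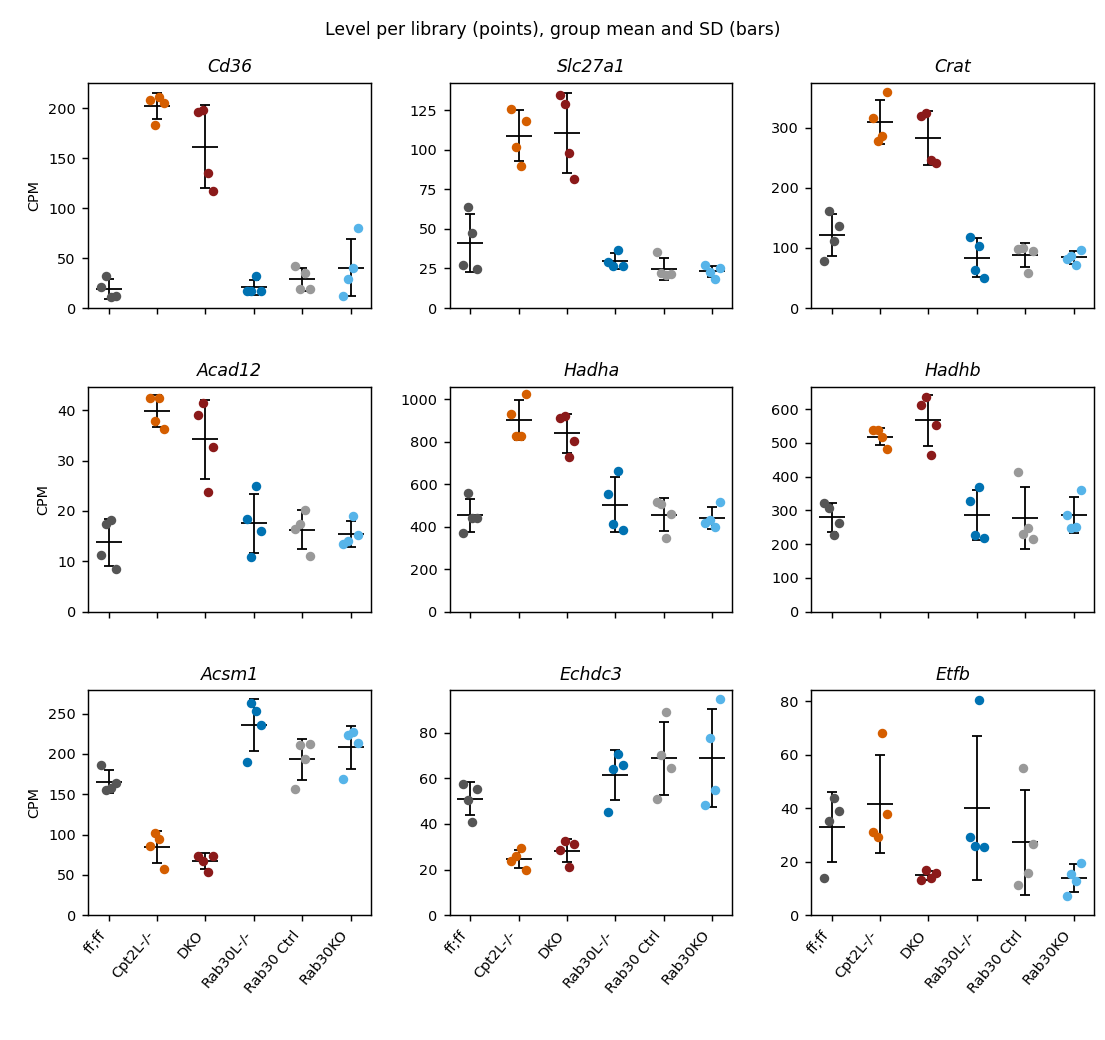
CPM of 9 genes is shown for each library (points) in the 6 groups, with the group mean and SD (bars) on axes that start at 0. Cd36, Slc27a1, Crat, Acad12, Hadha and Hadhb are higher and Acsm1 and Echdc3 lower in all Cpt2L-/- and DKO libraries than in all ff;ff libraries, while Etfb overlaps.

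In the family with an enoyl-CoA hydratase domain, Echdc3 fell and no gene rose. Echdc3 had 57.6, 50.7, 41.1 and 55.2 CPM in floxed control, 23.8, 25.8, 29.5 and 19.8 in Cpt2L-/- and 28.7, 32.5, 21.01 and 31.1 in DKO livers. All knockout values lay below the lowest floxed control value, with log2 fold changes of -1.06 ± 0.16 (SE, adjusted p = 3.9e-04) and -0.86 ± 0.17 (SE, adjusted p = 0.00450). Echdc1, which removes ethylmalonyl-CoA, gave log2 values of -0.68 and -0.46 at levels under 12 CPM in every library, and opposite-strand exons, mostly of Rnf146, cover 86.4% of its exon bases.

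With loss of Rab30 few genes of any kind were called. Between DKO and Cpt2L-/- livers 2 of the 39 were, both lower in DKO, where 2.71% of 13306 genes were called in either direction and 1.33% lower. Etfb, with the values above, was -1.45 ± 0.24 (SE, adjusted p = 0.0158), and each DKO library lay under each Cpt2L-/- library. This call was lost without Cpt2L-/- replicate 4, whose level of 37.7 CPM lay between those of the others. Etfb ranged from 11.4 to 55.2 CPM in Rab30 Ctrl, 25.4 to 80.4 in Rab30L-/- and 7.25 to 19.7 in Rab30KO livers. Echdc2, a gene of unclear role, had 172, 159.6, 209 and 181 CPM in Cpt2L-/- and 119, 126, 133 and 139 CPM in DKO livers, without overlap. Its log2 fold change was -0.47 ± 0.11 (SE, adjusted p = 0.0481), and the call was lost whichever library was left out, with adjusted p of 0.0547 to 0.145 by edgeR. Echdc2 ranged from 136 to 191 CPM in floxed control and 158 to 212 in Rab30L-/- livers. In Rab30 Ctrl and Rab30KO livers it ranged from 124 to 146 and from 110 to 128 CPM. Echdc2 lies 241.8 kb from Cpt2 on chromosome 4 (chr4:108165437-108179308). With all 24 libraries in one fit neither gene was called. DESeq2 called both and also Acsm3 as higher in DKO (0.58 on the log2 scale by edgeR), where it called 7.76% of all genes. Without the filter on low counts Acsm3 and Acsl1 were called higher beside these 2 falls, where 2.79% of all genes were called. The log2 values of the other 37 genes lay between -0.51 (Slc27a4) and 0.58 (Acsm3). Of the 5 genes that rose most in Cpt2L-/-, the change from Cpt2L-/- to DKO on the log2 scale was -0.31 ± 0.17 (SE, adjusted p = 0.316) for Cd36, -0.21 ± 0.16 (SE, adjusted p = 0.484) for Acad12 and 0.04 ± 0.17 (SE, adjusted p = 0.929) for Slc27a1 by edgeR. It was -0.51 ± 0.19 (SE, adjusted p = 0.157) for Slc27a4 and -0.12 ± 0.14 (SE, adjusted p = 0.677) for Crat, and none of the 5 was called.

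Between Rab30L-/- and floxed control livers none of the 38 genes tested was called by edgeR, and 0.479% of 13367 genes were. Cpt1b did not pass the filter on low counts. At an unadjusted p under 0.05 there were 6 genes, where 11.2% of all genes tested were under it, and DESeq2's Wald test called 2, Cpt2 and Acsm1, against 2.23% of all genes. In 4 genes no library overlapped the floxed controls, as held for 6.38% of all genes. Cpt2 had 268, 214, 226 and 169.7 CPM in Rab30L-/- livers, above every floxed control liver, with a log2 value of 0.73 ± 0.15 (SE, adjusted p = 0.0772) by edgeR and an adjusted p of 0.00147 by DESeq2. The Rab30 Ctrl livers, with wildtype Rab30, had 193, 205, 158 and 189 CPM, which also lay above every floxed control liver and overlapped the Rab30L-/- livers. Of these 3 groups only the floxed control is labelled as carrying floxed Cpt2 alleles. For Cpt2 and every other gene, that allele and the loss of Rab30 cannot be told apart in this comparison. Acsm1, at 189.7, 263, 254 and 236 CPM, was also above every floxed control liver (0.50 on the log2 scale). Cpt1a, at 1083, 1249, 1429 and 1007 CPM, lay above all floxed controls as well, which ranged from 754 to 991 CPM (log2 value 0.43 ± 0.17 (SE, adjusted p = 0.368) by edgeR). Acadm went the other way, at 568, 443, 564 and 394 CPM against 586 to 817 CPM in floxed control livers (log2 value -0.46 ± 0.18 (SE, adjusted p = 0.360) by edgeR). Acad10 had the widest difference, 0.85 ± 0.25 (SE, adjusted p = 0.218) by edgeR, with overlap. Its levels ran from 25.9 to 46.8 CPM in floxed control, 46.1 to 94.2 in Rab30L-/- and 45.3 to 111 in Rab30 Ctrl livers.

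Between Rab30KO and Rab30 Ctrl livers none of the 38 genes tested was called by edgeR, where 0.022% of 13656 genes were called. None of the 38 had an unadjusted p under 0.05, where 2.21% of all genes did, and DESeq2 called none, against 0.0732% of all genes. In none did the groups' libraries separate, as they did for 1.31% of all genes. The log2 values ran from -0.98 (Etfb) to 0.49 (Cd36), with a median SE of 0.19. Cd36 had 41.6, 18.8, 35.02 and 19.5 CPM in Rab30 Ctrl and 12.5, 29.2, 40.01 and 79.5 CPM in Rab30KO livers, with the highest and the lowest value both in the Rab30KO group.

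**Figure D5:**
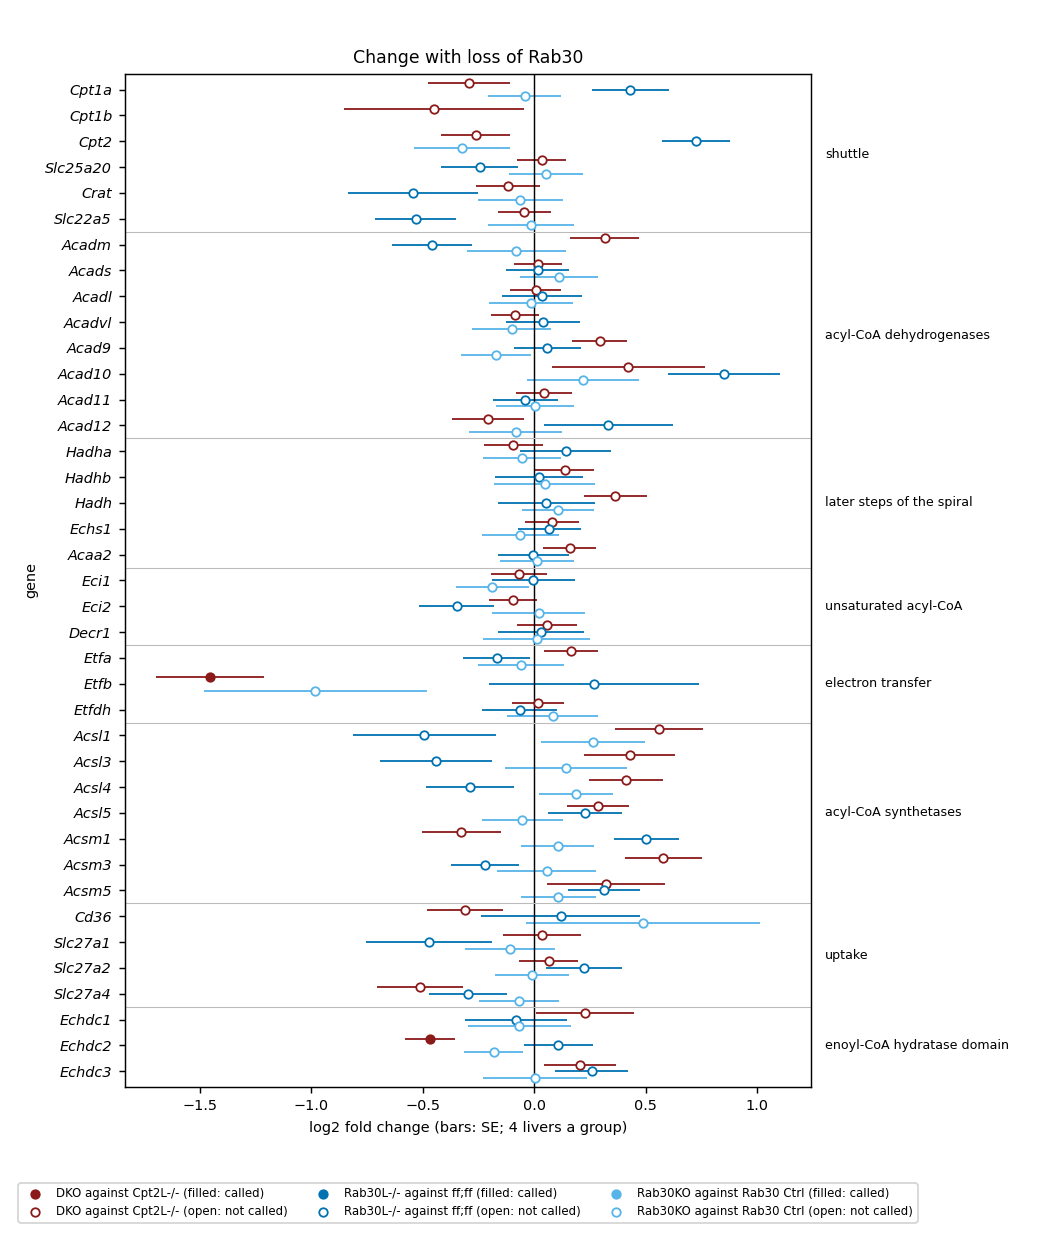
The log2 fold change of each gene is plotted for DKO against Cpt2L-/-, Rab30L-/- against ff;ff and Rab30KO against Rab30 Ctrl, with bars for the SE and filled points where the gene was called. Only Etfb and Echdc2, in DKO against Cpt2L-/-, are filled, and Cpt1b has a point in that comparison alone.

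The contrast of DKO and Cpt2L-/- less that of Rab30L-/- and floxed control was tested over 16 libraries. Cpt2 was the only one of 39 genes called by edgeR, lower in this contrast, as were 1.86% of 14063 genes. The change of Cpt2 from Cpt2L-/- to DKO less that from floxed control to Rab30L-/- was -0.99 ± 0.22 (SE, adjusted p = 0.0191) on the log2 scale, and it was called with each of the 16 libraries left out. As the floxed control and the Rab30L-/- livers differ in the labelled Cpt2 allele as well as in Rab30, this value cannot be assigned to Rab30. Acsm1 followed at -0.83 ± 0.23 (SE, adjusted p = 0.0504) by edgeR, and the call for it appeared without Rab30L-/- replicate 1 or Cpt2L-/- replicate 4. The same limit holds for Acsm1 and every other gene of this contrast. DESeq2 called 6 genes here, namely Cpt2, Acadm, Etfb, Acsm1, Acsm3 and Echdc2, where it called 7.68% of all genes. With edgeR 11 of the 39 had an unadjusted p under 0.05, against 21.7% of all genes.

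Relatives and regulators of these genes were taken from lists outside the 39. Of 14 related enzymes tested in Cpt2L-/- livers against floxed controls, 6 fell and 2 rose, with log2 fold changes given in parentheses, where 11.9% of all genes were called lower and 11.9% higher. The falls of largest size were Slc27a5, which activates bile acids (-1.32), and Acadsb and Ivd, acyl-CoA dehydrogenases of branched-chain amino acid breakdown (-1.30 and -1.05). The rises were Acsf3, a malonyl-CoA synthetase (1.10), and Hsdl2, a peroxisomal protein (0.90). In DKO livers 5 of 13 fell and 2 rose, where 8.24% and 7.87% of all genes did, with log2 values of -0.96 for Slc27a5, -0.89 for Acadsb and -0.95 for Ivd. None of 6 genes of carnitine synthesis and transport was called in Cpt2L-/- or in DKO, where 23.8% and 16.1% of all genes were. Among 6 genes that maintain flavins and the flavoprotein, Slc52a2, a riboflavin transporter (1.48), and Flad1, which makes FAD (0.36), rose in Cpt2L-/- and Etfbkmt, the methyltransferase of Etfb protein, fell (-1.16). The call of Flad1 was lost in 7 of 8 fits without a library.

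Of 24 regulators, 4 rose and 2 fell in Cpt2L-/-, and 3 rose and 1 fell in DKO. These shares, 25% and 16.7%, lie near the 23.8% and 16.1% of all genes tested. Ppara itself ranged from 81.2 to 151 CPM in floxed control, 114 to 257 in Cpt2L-/- and 112 to 279 in DKO livers, which overlapped. It was not called, with log2 values of 0.73 ± 0.27 (SE, adjusted p = 0.0691) and 0.76 ± 0.30 (SE, adjusted p = 0.113). Ppargc1a, its coactivator, was not called either, at log2 values of -0.70 and -0.78. The rises of largest size in Cpt2L-/- were Pparg, the lipid storage receptor (1.39 ± 0.22 (SE, adjusted p = 5.3e-04)), Sirt5, a mitochondrial deacylase (0.86), and Prkaa2, a catalytic subunit of AMP-activated kinase (0.63). The falls were Lpin1, a phosphatidate phosphatase and coactivator (-2.24), and Prkab1, another kinase subunit (-0.62). Lpin1 ranged from 217 to 1647 CPM in floxed control, 96.4 to 178 in Cpt2L-/- and 70.1 to 604 in DKO livers. Its log2 value was -1.41 without ff;ff replicate 3, the highest library, and its call was lost in 5 of 8 fits without a library and without the filter on low counts (adjusted p = 0.0913 by edgeR). That of Prkaa2 was lost in 6 of 8. Lpin1 was not called in DKO, at -1.41 ± 0.83 (SE, adjusted p = 0.315). In DKO livers Pparg changed by 1.58 on the log2 scale, Prkaa2 by 0.92 and Prkab1 by -0.65, the last not called without DKO replicate 1. Of these 55 genes outside the set, none of those tested was called in Rab30L-/- against floxed control or Rab30KO against Rab30 Ctrl. Of the 19 related enzymes 13 were tested in each. Of all genes, 0.479% and 0.022% were called. In DKO against Cpt2L-/- livers, where 2.71% of all genes were called, Nudt19, a peroxisomal coenzyme A hydrolase, rose (0.54). Acsf3 (-0.55) and the kinase Stk11 (-0.51) fell. Each of these calls was lost in 5 to 7 of 8 fits without a library.

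Hepatocyte markers were lower in these livers too. The summed level of 9 markers ranged from 100514 to 132095 CPM in floxed control, 50318 to 58739 in Cpt2L-/- and 64949 to 79695 in DKO livers. In Cpt2L-/- 4 of the 9 fell, albumin among them at -1.41 on the log2 scale, and in DKO 3 fell, while none rose. Of all genes tested, 23.8% were called in Cpt2L-/- (11.9% lower) and 16.1% in DKO (8.24% lower). Without albumin the other 8 summed to 29516 to 44636 CPM in floxed control, 22215 to 25096 in Cpt2L-/- and 21300 to 31067 in DKO livers, the last with overlap. Of 9 Kupffer cell markers 3 fell in Cpt2L-/- and 5 in DKO, where 11.9% and 8.24% of all genes were called lower. In DKO livers the sum of these markers ranged from 157 to 191 CPM against 203 to 372 in floxed control livers. Of 9 stellate cell markers none was called in either knockout, and their sum was 288.7 to 308 CPM in Cpt2L-/- and 275 to 330 in DKO against 154 to 288 in floxed control livers (median log2 value 0.55 in Cpt2L-/-). Of the bile duct markers tested, Sox9 fell in both (-2.26 and -1.45 on the log2 scale), and the summed level of all 6 overlapped, at 15.3 to 31.9 CPM in floxed control, 9.57 to 24.1 in Cpt2L-/- and 12.2 to 21.1 in DKO livers. Of 8 sinusoidal endothelial markers Clec4g fell in Cpt2L-/- (-0.65), and none was called in DKO. In Rab30L-/- livers the hepatocyte sum, at 84171 to 99752 CPM, was below every floxed control liver, but without albumin it overlapped, at 29080 to 35958 CPM, and 3 of the 9 markers had positive log2 values (median -0.09). The Kupffer sum ranged from 259 to 740 CPM there, and all 9 Kupffer markers had positive log2 values (median 0.62). No marker of either list was called, where 0.479% of all genes were. In Rab30 Ctrl and Rab30KO livers the sums overlapped, at 100623 to 131326 and 99879 to 130011 CPM for hepatocytes and 416 to 690 and 305 to 1502 CPM for Kupffer cells. The part of these shifts in the changes above was not tested.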

How the data were processed

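Total RNA from flash frozen liver was made into libraries and sequenced by Novogene, and the deposited tables used here hold raw read counts and FPKM values for each gene, both made for the authors. The submitters' processing notes name HISAT2, DESeq2 and the builds GRCm38 and mm10. The counter, strand setting and FPKM scale are not given in the sources used here. Tables of the authors' own fold changes and p-values, and a normalized count table, were not used.

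Each of the 24 libraries took its group from its genotype label. Replicate numbers follow accession order and pair nothing. Labels do not say whether livers were processed on separate days, and p-values measure the spread between these livers. Every pair of libraries of one group differed by more than counting noise. Genes passed edgeR's filterByExpr, and counts were TMM scaled and fitted per comparison on 8 libraries by glmQLFit (robust) and glmQLFTest (edgeR 4.0.16, R 4.3.3), after tests on simulated data. The interaction used 16 libraries. Alternatives were DESeq2 1.42.0 (Wald test, size factors), no filter, a fit over all 24 libraries, no fold threshold, and each library left out. Motifs and annotation used RefSeq windows and GENCODE M21.

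The members and lists were chosen with earlier results of these data known. Values of each library were given for Cpt2, for the 2 highest rises and 2 lowest falls called per role group in Cpt2L-/- or DKO against ff;ff, and for genes called in another comparison. Values of Acad10, and of Cd36, Cpt1a, Cpt2, Acsm1 and Acadm in the Rab30 comparisons, were added after they were seen. Of the other lists, up to 3 rises and 3 falls of Cpt2L-/- were named, with Ppara and Ppargc1a always.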

Additional observations from a re-analysis of the deposited data

Results flagged for a closer look

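In 13 of 234 sets of 4 libraries (39 genes in 6 groups) a library stood apart from the other 3 by Dixon's gap test, where about 1 in 20 would by chance. Rab30 Ctrl replicate 1 was high for 5 genes, with Acad11 at 601 CPM, Hadhb at 412, Eci2 at 371, Slc27a1 at 35.3 and Slc27a2 at 2354 CPM. Rab30 Ctrl replicate 3 was low for Crat, at 57.8 CPM. Rab30L-/- replicate 3, the deepest library with 24497738 counts, was high for Etfb at 80.4 CPM, Acsl4 at 94.9 and Cd36 at 32.2 CPM. In Rab30KO livers, Cpt2 was low in replicate 1 at 87.8 CPM, against 162 to 174 in the others, and Decr1 was high in replicate 4 at 287 CPM. Acads was high in DKO replicate 1 at 233 CPM, and Acaa2 in Cpt2L-/- replicate 3 at 757 CPM. None of the 39 genes became called in either comparison of Rab30 loss alone when any of these libraries was left out.

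For Cpt2 itself, the change from Cpt2L-/- to DKO and that from floxed control to Rab30L-/- differed by -0.99 on the log2 scale in edgeR's interaction test (adjusted p = 0.0191). Cpt2 was higher in 4 of 4 Rab30L-/- livers than in the floxed controls, which alone of the pair carry floxed Cpt2 alleles, so that allele and Rab30 loss cannot be told apart.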

How the results depend on the processing

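The number of the 39 genes called in Cpt2L-/- against ff;ff was between 21 and 23 under the other settings, with 3155 to 3589 of all genes. It was between 18 and 21 with a library left out, with 2352 to 3459 of all genes. In DKO against ff;ff it was between 16 and 21 with a library left out, with 1485 to 2675 of all genes. Of 48 log2 fold changes followed across settings, 31 fits without a library lost a call that all libraries gave, and the sign turned once, for Cpt2 in Cpt2L-/- against ff;ff (0.036 without Cpt2L-/- replicate 1, range -0.23 to 0.036). Calls lost in Cpt2L-/- were those of Slc25a20 (without ff;ff replicate 4, Cpt2L-/- replicate 3 or 4), Eci2 (ff;ff replicate 4 or any Cpt2L-/- library) and Acsm5. In DKO they were those of Slc25a20 (DKO replicate 1 or ff;ff replicate 4), Acadvl (any DKO library, ff;ff replicate 1 or 4) and Etfb. Calls that appeared were those of Acsm3 (without ff;ff replicate 4 or Cpt2L-/- replicate 1) and Echdc1 (Cpt2L-/- replicate 2) in Cpt2L-/-, and of Eci2 (ff;ff replicate 2), Acsl1 (DKO replicate 3 or ff;ff replicate 2) and Echdc2 (ff;ff replicate 1) in DKO.

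In DKO against Cpt2L-/-, 4 of the genes and 705 of all genes were called without the filter, and 0 and 114 in the fit over all 24 libraries. DESeq2 called 3 and 1032 there, and leaving out a library gave 0 to 1 and 57 to 445. In Rab30L-/- against ff;ff, no filter gave 1 and 240, DESeq2 gave 2 and 298, and leaving out a library gave 0 and 23 to 93. In Rab30KO against Rab30 Ctrl, 6, 9 and 10 of all genes were called without the filter, over 24 libraries and by DESeq2, and 0 to 4 with a library left out. The interaction gave 2 of the genes and 477 of all genes without the filter, and 2 and 374 over 24 libraries. It gave 6 and 1080 by DESeq2, and 1 to 3 and 300 to 679 with a library left out. The cause was not tested. Levels per kb of listed length lay within 1 SD of FPKM for all 39 genes, and 25 moved by more with the length of the principal transcript, which was chosen after seeing the data.

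No paired analysis was possible because the labels give the groups no shared replicate numbers, and the numbers used here only follow accession order. Totals of 11801027 to 24497738 counts leave genes such as Cpt1b, at 2 CPM or less, with little precision, and 4 livers a group limit the smaller changes.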
